A study of Mus musculus with 8 samples.

Results

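The genes described here are 44 lysosomal genes, chosen by symbol from the table of 24062 genes counted in mouse immature myeloid cells (IMCs), and all 44 were among the 13197 genes with enough counts to be tested. They comprise 3 transcription factors of lysosome biogenesis, 3 lysosomal membrane proteins, 9 proteases (8 cathepsins and legumain), 7 glycosidases, 6 lipid-handling proteins, progranulin, and 15 subunits or accessory proteins of the proton pump. The pump subunits and proteases known mainly from osteoclasts, Ctsk and Atp6v0d2, were not members. The 8 RNA libraries formed 4 groups of 2, all from C57BL/6 mice at 2 months of age. PARP1CKO cells were PARP1 flox/flox with lysozyme-Cre and PARP2CKO cells were PARP2 flox/flox with lysozyme-Cre. PARP1 WT and PARP2 WT cells were from floxed littermates of each line without Cre, so WT here means an intact floxed gene, and the presence of Cre and the loss of the gene cannot be told apart. The Cre is driven by the lysozyme promoter and acts in myeloid cells. Bone marrow cells of all 4 groups had grown for 3 days in M-CSF at 40 ng/mL. The labels give 2 replicates a group and do not say that each came from its own mouse, so the p-values measure the spread between these samples.

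The lysosome is the acidic compartment in which cells digest proteins, glycans and lipids. Its enzymes work at low pH, which the vacuolar proton pump (V-ATPase) keeps by driving protons through its membrane sector, V0, with energy from ATP split by its outer sector, V1. Transcription factors of the MiT family, Tfeb, Tfe3 and Mitf, switch on many lysosomal genes by binding a short palindrome in their promoters, and macrophages, which digest what they engulf, carry large amounts of lysosomal enzymes. Osteoclasts, which arise from the same precursors under M-CSF and RANKL, use the pump and secreted cathepsins to dissolve bone.

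The core of that palindrome is CACGTG, and it was searched here together with the longer TCACGTGA and the full palindrome known as CLEAR. Each form reads the same on both strands, and each longer form holds the shorter ones. RefSeq promoters (GRCm38.p6, 250 bases before to 50 bases after the gene start) were on hand for 36 of the 44 members, and Ctsb, Ctsh, Asah1, Npc1, Atp6v1b2, Atp6v1c1, Atp6v1g1 and Atp6v1h had no entry. CACGTG stood in the promoters of 13 of the 36 members (36.1%), against 8.09% of all 27025 genes with a promoter and 11.7% of the 9800 of those that were tested. TCACGTGA stood in 7 of the 36 (19.4%), against 1.12% of all genes and 2.17% of tested genes. The full CLEAR palindrome stood in 0 of the 36, against 0.37% of all genes and 0.837% of tested genes. Windows of 30 bases around matches are printed below for 10 of the 13 members with a match, to show both forms, with the palindrome in capitals, 5′ to 3′ on the gene's strand. The number before the sequence is the position of the first C of the core, counted from 0 at the RefSeq start site.
Ctsd, chr7:142387908-142387937, minus strand, -98: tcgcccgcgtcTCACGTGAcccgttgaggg
Ctsl, chr13:64370739-64370768, minus strand, -236: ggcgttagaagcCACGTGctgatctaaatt
Lgmn, chr12:102439124-102439153, minus strand, -49: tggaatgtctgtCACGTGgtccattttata
Ctsa, chr2:164833749-164833778, plus strand, -12: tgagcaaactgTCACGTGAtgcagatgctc
Gaa, chr11:119267811-119267840, plus strand, -140: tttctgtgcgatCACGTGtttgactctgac
Lamp1, chr8:13159088-13159117, plus strand, -61: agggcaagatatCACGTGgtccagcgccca
Mcoln1, chr8:3500462-3500491, plus strand, -45: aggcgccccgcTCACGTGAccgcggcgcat
Atp6v0b, chr4:117887348-117887377, minus strand, -36: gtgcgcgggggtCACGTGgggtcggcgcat
Atp6v0e, chr17:26676387-26676416, plus strand, 3: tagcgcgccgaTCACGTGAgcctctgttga
Atp6v1a, chr16:44139373-44139402, minus strand, -131: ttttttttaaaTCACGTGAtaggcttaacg
The Lamp1 promoter held the core 4 times, and those of Mcoln1, Ctsa, Ctsd, Gla and Atp6v0b held it 2 times each. Glb1 and Atp6v0d1 were the other members with a match. Other lysosomal and autophagy genes, from a list of 127 that are not members, had the core in 22.8% of the 101 genes with a promoter. These matches describe sequence only, and binding was not measured.

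The libraries held from 37852450 to 61845125 counts on genes. Parp1 fell from 202.0 and 210.7 CPM (counts scaled to a common library size) in PARP1 WT to 63.2 and 59.1 CPM in PARP1CKO, and Parp2 fell from 48.2 and 48.3 CPM in PARP2 WT to 25.8 and 25.6 CPM in PARP2CKO. The residual counts come from the whole gene, and the deleted part was not counted apart. Parp1 also differed between the PARP2 WT libraries, at 251 and 155 CPM. Macrophage genes were abundant, with Csf1r, the M-CSF receptor, between 1134 and 1273 CPM. Itgam, which encodes CD11b of the CD11b and Gr1 gate that the study uses for IMCs, had between 881 and 1035 CPM. Itgam, Ly6c1 and Ly6c2 of that gate together summed to between 936 and 1097 CPM, so most of this sum was Itgam. Ly6g, also of that gate, was not among the genes counted. T and NK cell markers summed to at most 0.384 CPM in any library. In bulk RNA, fewer cells of a type and less RNA per cell cannot be told apart.

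Lysosomal genes took up a large share of these cells' RNA. The 44 members together made up on average 6.52% of all counts assigned to genes. Per length of exon, the median member stood at 103.5 CPM per kb, against 5.30 CPM per kb for all tested genes with a length, and all 44 lay above that all-gene median. In the order of 13084 tested genes with a length, 34 members were in the top 10% and 10 were in the top 100. Among the members Ctsd, the main lysosomal aspartic protease, had the highest level per length at 6547 CPM per kb (range over libraries 5973 to 7545). Next came Psap, the precursor of saposins that help hydrolases reach sphingolipids, at 4083 CPM per kb, and Ctsb, a cysteine protease, at 2466 CPM per kb. Ctsd, Psap, Ctsb and Ctss did not overlap one another in any library, and below them 29 members overlapped the member next in order. The lowest levels per length were those of Smpd1, acid sphingomyelinase, at 8.90 CPM per kb, and the transcription factors Mitf, at 8.59, and Tfeb, at 5.33 CPM per kb. The factor Tfe3, at 16.0 CPM per kb, stood above Smpd1, and Tfeb was close to the median of all tested genes.

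**Figure D1:**
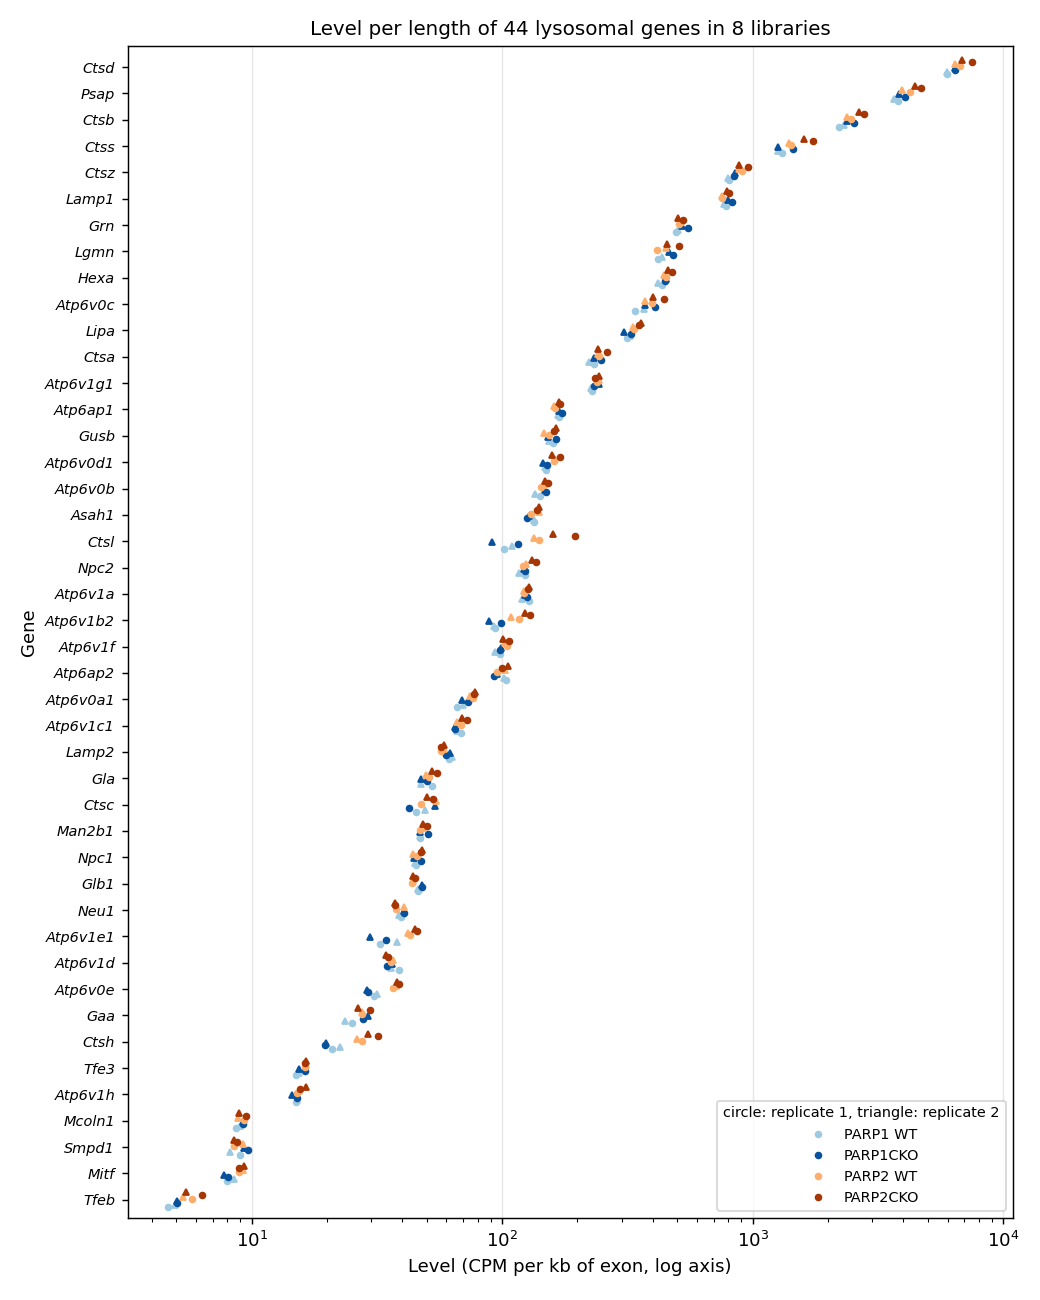
Level of each of the 44 members in each of the 8 libraries, in CPM per kb of exon on a log axis, ordered by mean level, with colours for the groups and circles and triangles for replicates 1 and 2. The members spread from 5.33 (Tfeb) to 6547 CPM per kb (Ctsd), while the 8 libraries of a member lie close together, with Ctsl the widest at 2.15-fold between its highest and lowest library.

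Members varied little between libraries. The ratio of the highest to the lowest library was 1.16 for the median member and 1.21 for the median of all genes tested. It was over 1.5 for 3 members, Ctsl (2.15), Ctsh (1.64) and Atp6v1e1 (1.54), and for 25.8% of all genes tested. Members were far more abundant than most genes tested (medians of 103.5 and 5.30 CPM per kb). The ratio was not compared among genes of like level. Summed over the 44 members, the level was 60510 and 60641 CPM in PARP1 WT, then 65462 and 62782 CPM in PARP1CKO, then 66125 and 64018 CPM in PARP2 WT and finally 73346 and 68980 CPM in PARP2CKO. Both deletion groups had higher sums than their own WT group without overlap, and PARP2CKO replicate 1 was the highest library. That library alone held the highest value of 23 of the 44 members, and PARP2CKO replicate 2 held the highest of another 9. Most of each sum came from Ctsb, Ctsd and Psap, which gave 37919 to 47456 CPM. Without these 3 genes the sums were 22592 and 22565 CPM in PARP1 WT, then 23856 and 22774 CPM in PARP1CKO, then 23670 and 23624 CPM in PARP2 WT and finally 25890 and 24746 CPM in PARP2CKO. In that sum, too, both deletion groups lay above their own WT group.

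The first comparison was of lysosomal genes under deletion of PARP1 together with the presence of Cre. Comparing PARP1CKO with PARP1 WT cells, 0 of the 44 members had an adjusted p-value under 0.05 (quasi-likelihood test of edgeR, Benjamini-Hochberg adjustment over all 13197 genes), where 0.106% of all genes did. DESeq2 and edgeR's likelihood-ratio test also called 0 members. At an unadjusted p under 0.05 there were 7 members (15.9%), 4 higher and 3 lower, against 11.3% of all genes tested (6.11% higher and 5.15% lower). The log2 fold changes ran from -0.15 (Ctsh) to 0.22 (Gaa), with a median of 0.04 against 0.01 for all genes tested. The median was 0.023 without PARP1CKO replicate 1 and 0.062 without PARP1CKO replicate 2. Levels were higher in PARP1CKO for 30 members, against 52.1% of all genes tested. Both PARP1CKO libraries lay above both PARP1 WT libraries in 19 members and below them in 5, or 43.2% and 11.4%, against 21.0% and 20.2% of all genes tested. Of the fitted intervals, the farthest bound was 0.35 on the log2 scale, so a change of any member beyond that size lay outside its 95% interval.

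Gaa, acid alpha-glucosidase, which breaks down glycogen in lysosomes (chr11:119267887-119285454 in GENCODE M21 on mm10), had the smallest p of the members. Its level was 121 and 113 CPM in PARP1 WT against 134 and 139 CPM in PARP1CKO. Both PARP1CKO libraries were higher, with means of 136 ± 3.84 and 117 ± 5.40 CPM (SD, n = 2), and the log2 fold change was 0.22 (SE 0.0576, adjusted p = 0.262, edgeR). Atp6v0b, a proton-carrying ring subunit of V0, had 291 and 277 CPM in PARP1 WT against 307 and 306 CPM in PARP1CKO (log2 fold change 0.11, SE 0.0421, adjusted p = 0.382, edgeR). It too was higher in both PARP1CKO libraries, with a log2 fold change of 0.072 without PARP1 WT replicate 2.

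Other members had lower levels. Atp6v0e, a small V0 subunit (chr17:26663231-26699647), had 115 and 118 CPM in PARP1 WT against 108 and 107 CPM in PARP1CKO (log2 fold change -0.12, SE 0.0384, adjusted p = 0.323, edgeR). Atp6ap2, an accessory pump protein also known as the prorenin receptor, had 271 and 267 CPM in PARP1 WT against 243 and 249 CPM in PARP1CKO (log2 fold change -0.13, SE 0.0510, adjusted p = 0.396, edgeR). For Ctsh, a cysteine protease that trims peptides from their amino end (chr9:90054152-90076089), the levels were 94.6 and 102 CPM in PARP1 WT against 88.1 and 89.3 CPM in PARP1CKO (log2 fold change -0.15, SE 0.0584, adjusted p = 0.403, edgeR). Each of these 3 was lower in both PARP1CKO libraries than in both PARP1 WT libraries, and the Ctsh value was -0.097 without PARP1 WT replicate 2. The other members with an unadjusted p under 0.05 were Smpd1 (29.9 and 27.3 CPM in PARP1 WT against 32.4 and 31.3 CPM in PARP1CKO, log2 fold change 0.16) and progranulin, Grn (0.11), a secreted protein whose granulin pieces act in lysosomes.

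The abundant Ctsd had 14091 and 14041 CPM in PARP1 WT against 15127 and 15140 CPM in PARP1CKO, higher without overlap (log2 fold change 0.11, SE 0.0617, adjusted p = 0.540, edgeR). By role, 7 of the 9 proteases, 6 of the 7 glycosidases and 4 of the 6 lipid-handling genes had positive log2 fold changes, with medians of 0.08, 0.05 and 0.02. The 15 pump genes were split, 8 positive and 7 negative, with a median of 0.01. The count of 7 members at an unadjusted p under 0.05 fell to 3 without PARP1 WT replicate 2 and to 3 without PARP1CKO replicate 1. Cell type markers differed as well. Erythroid markers summed to 4.01 and 3.29 CPM in PARP1 WT against 5.31 and 6.48 CPM in PARP1CKO, with all 4 tested positive. Emr1 and Camp, of the macrophage and neutrophil lists, and the erythroid Hba-a1 were higher and Ccr2 and Atp6v0d2, of the monocyte and osteoclast lists, lower in PARP1CKO at an unadjusted p under 0.05. Y-linked genes summed to 156 CPM in PARP1CKO replicate 2 and to between 216 and 235 CPM in the other 7 libraries. Xist, the gene of X inactivation, had 0.000 CPM in PARP1CKO replicate 2 and at most 0.0577 CPM in any library. B cell markers summed to between 27.5 and 39.8 CPM in the 4 libraries of the PARP1 line. The part of these in the lysosomal values was not tested.

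**Figure D2:**
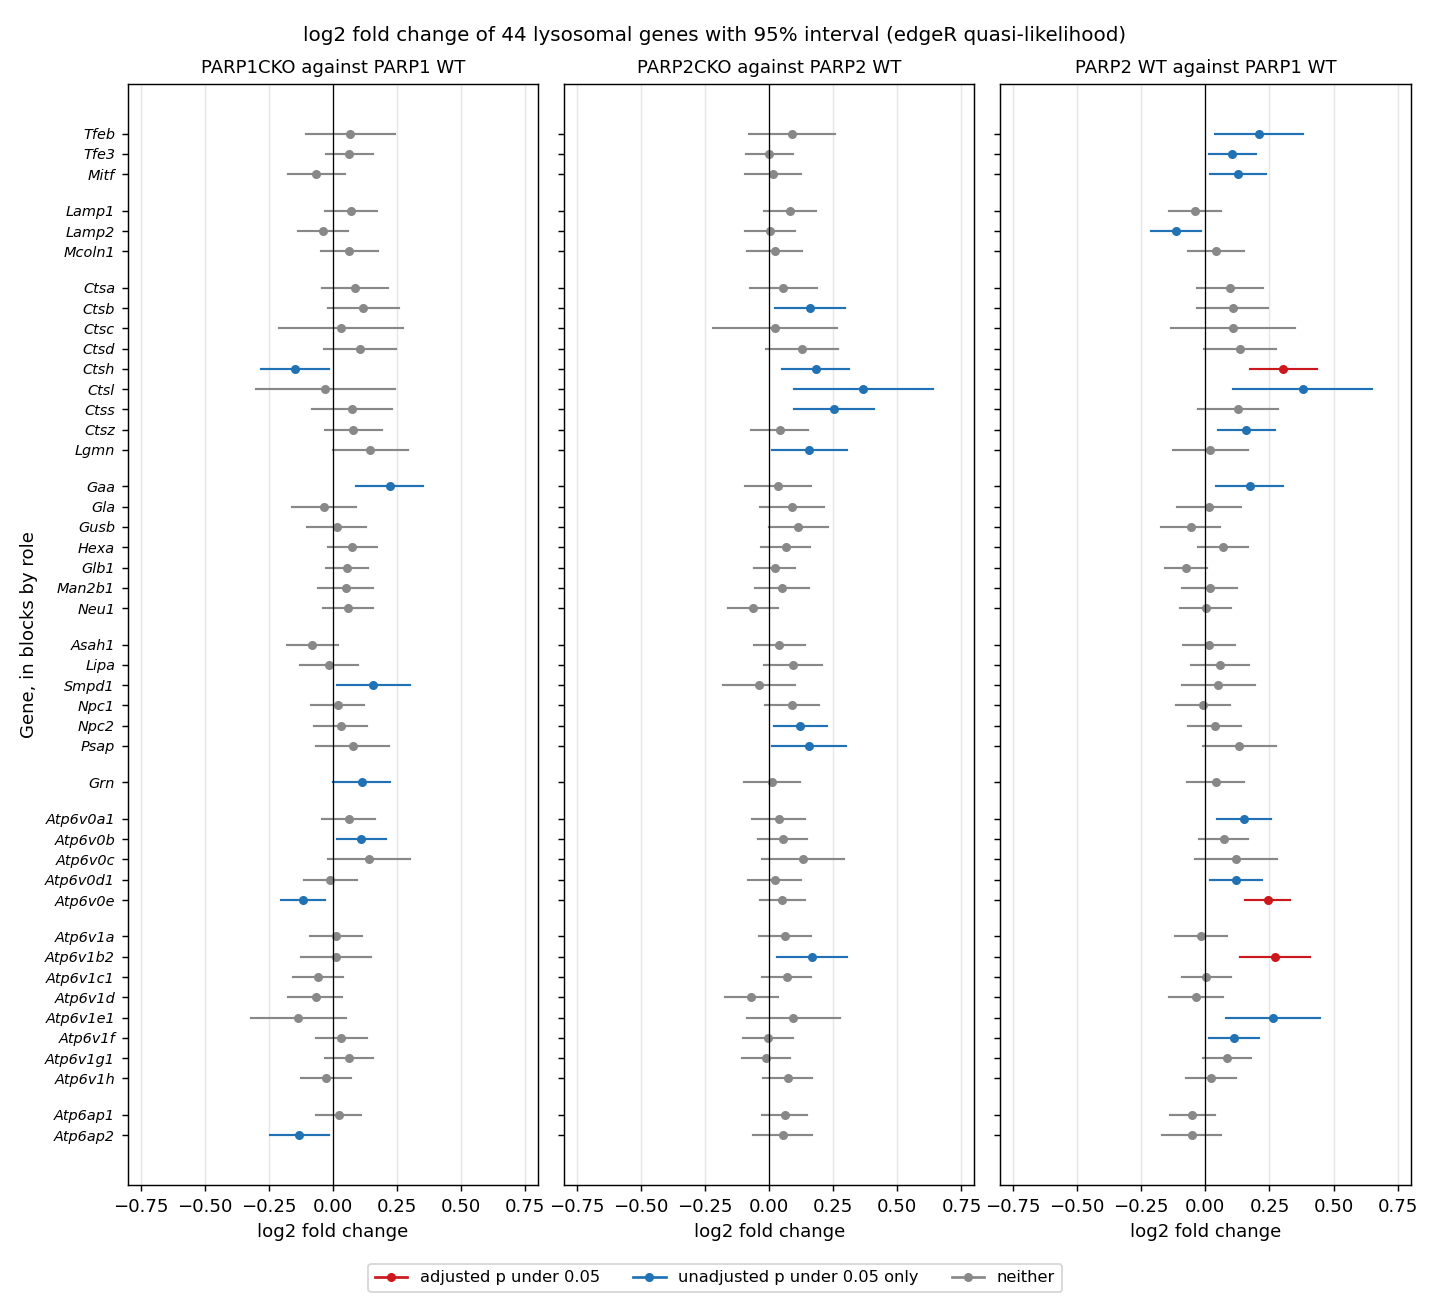
Fitted log2 fold change (points) and 95% interval (lines) of the 44 members, in blocks by role, for each deletion against its own WT group and for PARP2 WT against PARP1 WT. No member is red in either deletion panel, while Ctsh, Atp6v0e and Atp6v1b2 are red in the comparison of the WT groups; every point lies between -0.15 and 0.38.

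The second comparison was the same for deletion of PARP2, again together with the presence of Cre. Comparing PARP2CKO with PARP2 WT cells, the quasi-likelihood test of edgeR called 0 of the 44 members at an adjusted p-value under 0.05, where 0.0530% of all genes did. The likelihood-ratio test called 0 as well, and DESeq2 called 1, Ctss (adjusted p = 0.0402). The share of all genes that DESeq2 called is not given here. At an unadjusted p under 0.05 there were 8 members, all higher in PARP2CKO (18.2%), against 2.36% of all genes tested, and 0 lower, against 2.46% (4.83% in both directions). Levels were higher in PARP2CKO for 39 of the 44 members (88.6%), against 49.3% of all genes tested, and for 31 of the 44 when libraries were scaled by their total counts alone, which moved the median of all genes tested from 0.00 to -0.03. Both PARP2CKO libraries lay above both PARP2 WT libraries in 25 members and below them in 2, or 56.8% and 4.55%, against 18.4% and 18.8% of all genes tested. The log2 fold changes ran from -0.07 (Atp6v1d) to 0.37 (Ctsl), and their median of 0.06 compares with 0.00 for all genes tested. The median half-width of the members' 95% intervals was 0.11.

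Proteases held 5 of the 8 members at an unadjusted p under 0.05, and all 9 had positive log2 fold changes with a median of 0.16. Ctss, a cysteine protease active at neutral pH that processes the invariant chain of MHC class II (chr3:95526786-95556403), had 1926 and 1903 CPM in PARP2 WT against 2375 and 2184 CPM in PARP2CKO. Both PARP2CKO libraries were higher, with means of 2279 ± 135 and 1914 ± 16.2 CPM (SD, n = 2), and the log2 fold change was 0.25 (SE 0.0686, 95% interval 0.10 to 0.41, adjusted p = 0.801, edgeR). The levels in the PARP1 line, between 1720 and 1962 CPM, were also below both PARP2CKO libraries.

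Ctsl, a cysteine endopeptidase (chr13:64359337-64370890), had the largest log2 fold change of the members, 0.37 (SE 0.120, 95% interval 0.10 to 0.64, adjusted p = 0.888, edgeR). It stood at 914 and 872 CPM in PARP2 WT and at 1267 and 1035 CPM in PARP2CKO, so that both PARP2CKO libraries were higher but lay far from each other. Without PARP2CKO replicate 1 its log2 fold change was 0.213, and without PARP2CKO replicate 2 it was 0.506. Ctsh had 125 and 118 CPM in PARP2 WT against 144 and 131 CPM in PARP2CKO (log2 fold change 0.18, SE 0.0572, adjusted p = 0.888, edgeR). For Ctsh, PARP2CKO replicate 2 was only slightly above PARP2 WT replicate 1, and the log2 fold change was 0.109 without PARP2CKO replicate 1. Ctsb had 14993 and 14451 CPM in PARP2 WT against 16833 and 16021 CPM in PARP2CKO (log2 fold change 0.16), and Lgmn, legumain, which cuts after asparagine and activates cathepsins, had 961 and 1049 CPM in PARP2 WT against 1183 and 1058 CPM in PARP2CKO (0.16). Ctsd, the most abundant member, had 15770 and 15159 CPM in PARP2 WT against 17738 and 16060 CPM in PARP2CKO, without overlap, and a log2 fold change of 0.13 (SE 0.0617, adjusted p = 0.954, edgeR).

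Among the genes of lipid handling, Npc2, which hands cholesterol to the membrane protein Npc1 for export, had 661 and 679 CPM in PARP2 WT against 744 and 714 CPM in PARP2CKO (log2 fold change 0.12, SE 0.0454, adjusted p = 0.927, edgeR). Psap had 11692 and 10783 CPM in PARP2 WT against 12885 and 12153 CPM in PARP2CKO (log2 fold change 0.16, SE 0.0631, adjusted p = 0.954, edgeR). Both genes were higher in both PARP2CKO libraries. Of the 6 genes of this role 5 had positive values, with a median of 0.09, and Smpd1 was the exception at -0.04.

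Of the pump genes, Atp6v1b2, the V1 subunit B of most tissues (chr8:69088646-69113711), had 619 and 576 CPM in PARP2 WT against 684 and 657 CPM in PARP2CKO. It was higher in both PARP2CKO libraries, and the log2 fold change was 0.17 (SE 0.0599, 95% interval 0.03 to 0.30, adjusted p = 0.888, edgeR). Over all 15 pump genes, 12 had positive values with a median of 0.05, and Atp6v1d was the lowest at -0.07. The glycosidases had a median of 0.05, with 6 of 7 positive and Neu1, neuraminidase, at -0.06. Grn stood at 0.01, and the membrane proteins Lamp1, Lamp2 and Mcoln1 at 0.08, 0.00 and 0.02.

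In the line not yet given, these genes had the following levels. Of those named for PARP1CKO, Gaa had 132 and 132 CPM in PARP2 WT against 142 and 128 CPM in PARP2CKO, and Atp6v0b had 294 and 302 CPM against 314 and 305 CPM. Atp6ap2 had 249 and 270 CPM in PARP2 WT against 261 and 278 CPM in PARP2CKO, and Smpd1 had 28.5 and 30.7 CPM against 29.1 and 28.4 CPM. The PARP2CKO libraries overlapped those of PARP2 WT in Gaa, Atp6ap2 and Smpd1 and lay above them in Atp6v0b. Of those named for PARP2CKO, Ctsl had 662 and 710 CPM in PARP1 WT against 754 and 589 CPM in PARP1CKO, and Npc2 had 669.9 and 636 CPM against 669 and 664 CPM. Ctss had 1782 and 1720 CPM in PARP1 WT against 1962 and 1722 CPM in PARP1CKO, and Atp6v1b2 had 496 and 493 CPM against 526 and 472 CPM. All 4 of these genes overlapped between PARP1 WT and PARP1CKO. Ctsb had 13402 and 13963 CPM in PARP1 WT against 15372 and 14347 CPM in PARP1CKO, and Psap had 10426 and 10072 CPM against 11106 and 10521 CPM, both higher in PARP1CKO without overlap. Lgmn had 971 and 1011 CPM in PARP1 WT against 1113 and 1080 CPM in PARP1CKO, also without overlap (log2 fold change 0.15, SE 0.0650, adjusted p = 0.448, edgeR). Atp6v0e had 144 and 142 CPM in PARP2CKO, above its PARP2 WT libraries.

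**Figure D3:**
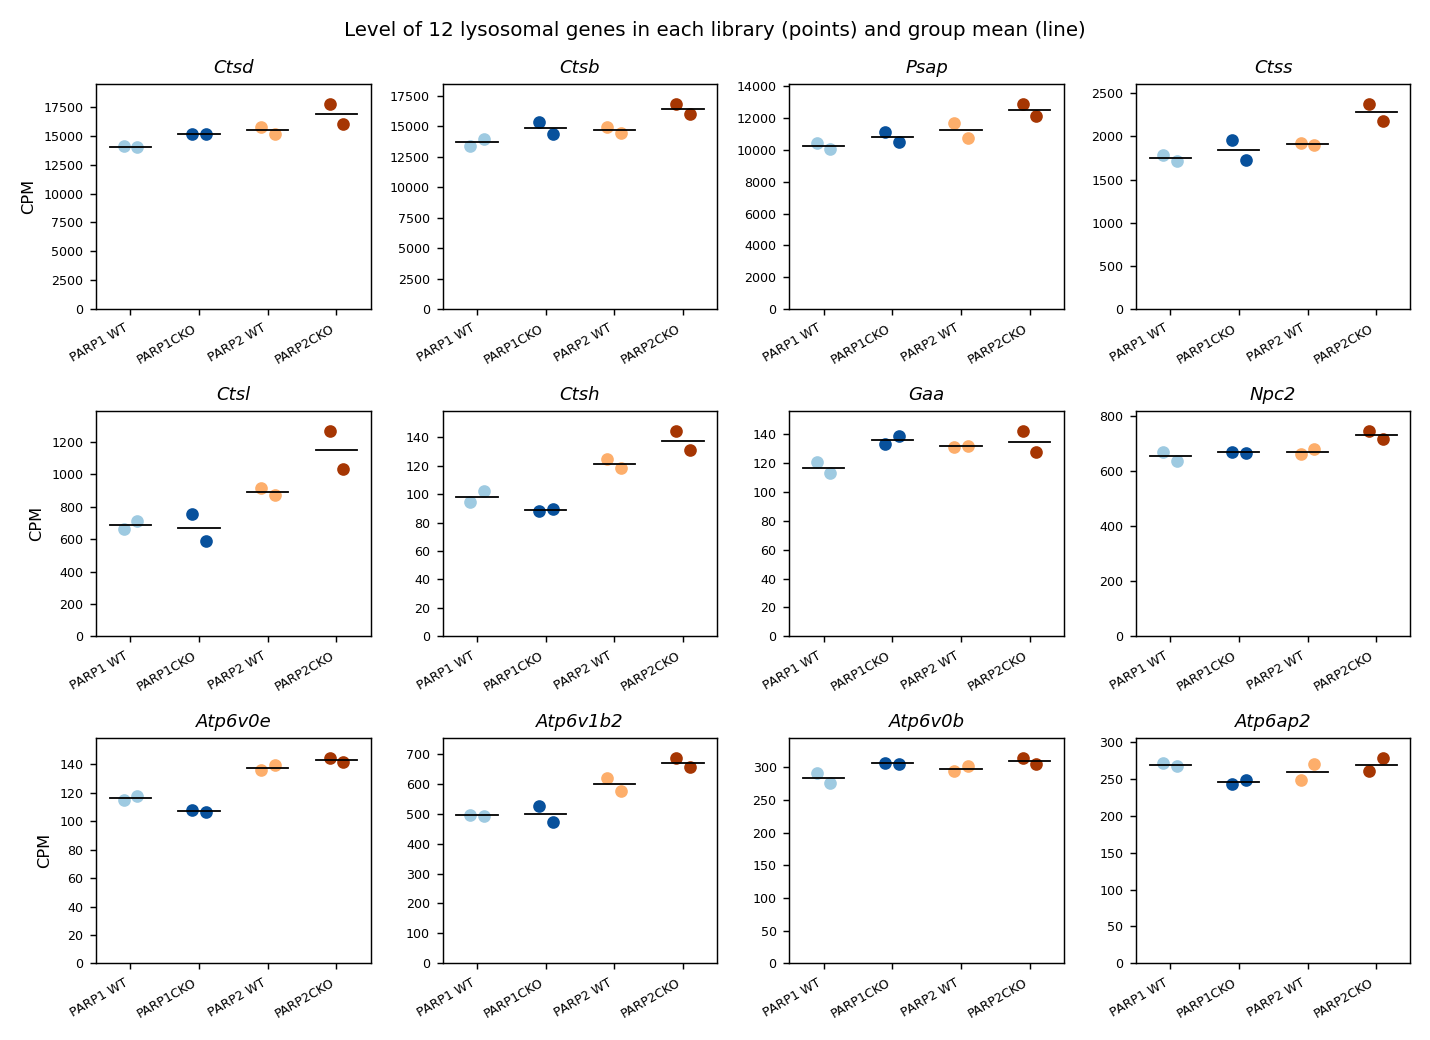
Level of 12 members in each library (points, CPM, axes from 0) with the mean of each group (line, n = 2). Ctss and Ctsl are highest in the 2 PARP2CKO libraries (2375 and 2184 CPM for Ctss), Gaa is lowest in the 2 PARP1 WT libraries, and Ctsh, Atp6v0e and Atp6v1b2 are higher in all 4 libraries of the PARP2 line than in all 4 of the PARP1 line.

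The count of 8 depended on the libraries used. Leaving out a library leaves 1 sample in its group, which is assumed to vary like the other groups. Without PARP2CKO replicate 1 the count at an unadjusted p under 0.05 was 1 in place of 8, without PARP2 WT replicate 2 it was 2, without PARP2 WT replicate 1 it was 5 and without PARP2CKO replicate 2 it was 11, while the members' median kept its sign, at 0.045 to 0.078 over all libraries left out in turn. Cell type markers also differed between these groups. Of the 7 neutrophil markers tested, 6 were lower in PARP2CKO, 5 without overlap and 2 of them (Cxcr2 and Retnlg) at an unadjusted p under 0.05, and the list summed to 2179 and 2033 CPM in PARP2 WT and to 1984 and 1754 CPM in PARP2CKO. Of the 10 monocyte and macrophage markers, Emr1, Fcgr1 and Mertk were higher and Ly6c2 lower in PARP2CKO at an unadjusted p under 0.05. That list summed to 4493 and 4711 CPM in PARP2 WT and to 4901 and 4753 CPM in PARP2CKO. Osteoclast markers summed to 183 and 191 CPM in PARP2 WT and to 224 and 204 CPM in PARP2CKO, with Atp6v0d2 at an unadjusted p under 0.05 higher and Mmp9 lower, and none of these genes passed the adjusted threshold. Erythroid markers summed to 1.89 and 1.83 CPM in PARP2 WT against 1.49 and 1.51 CPM in PARP2CKO, with 3 of 4 lower without overlap and Hbb-bs at an unadjusted p under 0.05. All 4 basophil and mast cell markers had lower values, 2 without overlap and Prss34 at such a p. Of the 4 granulocyte progenitor markers, 3 were lower without overlap. Of 3 genes tested from the CD11b and Gr1 gate that the study uses for IMCs, 2 were lower without overlap. These were Ly6c1 and Ly6c2, with log2 fold changes of -0.46 and -0.24, and Itgam stood at 0.05. The part of these cell types in the lysosomal values was not tested.

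The third comparison was of the 2 deletion effects with each other (PARP2CKO minus PARP1CKO), which draws on all 8 libraries and so shares samples with both comparisons above. At an adjusted p-value under 0.05 edgeR called 0 of the 44 members, where 0.0152% of all genes did, and DESeq2 and the likelihood-ratio test called 0 too. At an unadjusted p under 0.05 there were 4 members with a higher value for PARP2CKO and 1 with a lower one (11.4% together), against 7.69% of all genes tested (3.60% higher and 4.09% lower), and 26 members had a positive difference, against 47.8% of all genes tested. Ctsh had the smallest p, with a difference of 0.33 on the log2 scale (SE 0.0817, 95% interval 0.14 to 0.51, adjusted p = 0.414, edgeR), lower in PARP1CKO and higher in PARP2CKO than in the matching WT group. Atp6v0e had a difference of 0.17 (SE 0.0539, adjusted p = 0.582), Atp6ap2 of 0.18 (SE 0.0720, adjusted p = 0.614), Ctsl of 0.40 (SE 0.169, adjusted p = 0.639) and Gaa of -0.19 (SE 0.0811, adjusted p = 0.642), all from edgeR. The members' median difference was 0.03, against -0.01 for all genes tested, and it was -0.008 without PARP2CKO replicate 1. With libraries scaled by total counts alone it was 0.005, with 23 members positive and the median of all genes tested at -0.03. Leaving out single libraries gave 0.231 to 0.587 for the Ctsl difference and -0.269 to -0.112 for that of Gaa. Cell type markers moved here too. Of the 7 neutrophil markers 6 had a negative difference, with Cxcr2, Retnlg and Camp at an unadjusted p under 0.05, and all 4 erythroid markers did, with Hba-a1 and Hbb-bs at such a p. Of the 6 osteoclast markers, Atp6v0d2 and Dcstamp had a higher and Mmp9 a lower value at that level, none of these genes passed the adjusted threshold, and their part in the members' values was not tested. The farthest 95% bound of any member was 0.78 on the log2 scale.

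The fourth comparison was between the 2 mouse lines, and it was the one in which members passed the adjusted threshold of edgeR's quasi-likelihood test. Neither WT group carries a deletion, but Parp2 itself was higher in PARP2 WT, at 48.2 and 48.3 CPM against 39.1 and 40.8 CPM in PARP1 WT (log2 fold change 0.27, adjusted p = 0.0159, edgeR), and the comparison shares its libraries with those above. The quasi-likelihood test of edgeR called 3 of the 44 members at an adjusted p-value under 0.05, all higher in PARP2 WT, where it called 3.16% of all genes (1.92% higher and 1.24% lower). At an unadjusted p under 0.05 there were 13 higher (29.5%) and 1 lower (2.27%), against 10.3% and 8.63% of all genes tested. The number at this level depended on the libraries used, as given in the closing section. Levels were higher in PARP2 WT for 35 members (79.5%), against 50.4% of all genes tested, and for 27 when libraries were scaled by their total counts alone, which moved the median of all genes tested from 0.00 to -0.04. Both PARP2 WT libraries lay above both PARP1 WT libraries in 24 members and below them in 4, or 54.5% and 9.09%, against 26.7% and 25.2% of all genes tested. The median log2 fold change was 0.07, against 0.00 for all genes tested.

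Atp6v0e rose from 115 and 118 CPM in PARP1 WT to 136 and 140 CPM in PARP2 WT, a log2 fold change of 0.24 (SE 0.0382, adjusted p = 0.0134, edgeR). Ctsh rose from 94.6 and 102 CPM to 125 and 118 CPM, a log2 fold change of 0.30 (SE 0.0578, adjusted p = 0.0290, edgeR). Atp6v1b2 rose from 496 and 493 CPM to 619 and 576 CPM, a log2 fold change of 0.27 (SE 0.0601, adjusted p = 0.0477, edgeR). In these 3 genes the 4 libraries of the PARP2 line all lay above the 4 libraries of the PARP1 line. All 3 calls were lost without PARP1 WT replicate 1, without PARP2 WT replicate 1 or without PARP2 WT replicate 2, and Atp6v1b2 was also lost with DESeq2 size factors, with total counts alone, without PARP1 WT replicate 2 and without either PARP2CKO library. A group then holds 1 sample, which is assumed to vary like the other groups, and over the 8 such fits the log2 fold changes were 0.22 to 0.26 for Atp6v0e, 0.25 to 0.36 for Ctsh and 0.22 to 0.32 for Atp6v1b2.

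Other V-ATPase genes had higher values without passing the quasi-likelihood test. Atp6v0a1, the large V0 subunit that forms the proton path (chr11:101009452-101063719), had 435 and 459 CPM in PARP1 WT against 502 and 491 CPM in PARP2 WT (log2 fold change 0.15, SE 0.0460, adjusted p = 0.127, edgeR). Atp6v1e1, a subunit of the stalks that join the sectors (chr6:120794305-120822793), had 134 and 156 CPM in PARP1 WT against 176 and 173 CPM in PARP2 WT (log2 fold change 0.26, SE 0.0809, adjusted p = 0.129, edgeR). DESeq2, the likelihood-ratio test and the fit with no filter called Atp6v1e1, with adjusted p of 0.0255, 0.0438 and 0.0287, and its log2 fold change was 0.159 to 0.377 over the fits that leave out 1 library. In the deletion groups Atp6v0a1 had 479 and 454 CPM in PARP1CKO against 508 and 511 CPM in PARP2CKO, and Atp6v1e1 had 142 and 122 CPM against 188 and 184 CPM. Neither overlapped between the WT groups, and of all 15 pump genes 11 were higher, 9 without overlap, with a median of 0.09. All 9 proteases were higher as well, 7 without overlap, with a median of 0.13. Of all genes tested, 50.4% were higher and 26.7% were higher without overlap. Ctsl had the largest log2 fold change of the members between the WT groups, with 662 and 710 CPM in PARP1 WT against 914 and 872 CPM in PARP2 WT (0.38, SE 0.120, adjusted p = 0.138, edgeR). It was called by the likelihood-ratio test, the fit on 4 libraries and the fit with no filter (adjusted p of 0.0387, 0.0173 and 0.0190), and without either PARP1CKO library. DESeq2 called Ctsz, a carboxypeptidase, with an adjusted p of 0.0486. The lipid-handling genes and glycosidases had medians of 0.04 and 0.01. Lamp2, a membrane glycoprotein needed for fusion with autophagosomes, was the 1 member lower at an unadjusted p under 0.05, with 588 and 604 CPM in PARP1 WT against 543 and 558 CPM in PARP2 WT (log2 fold change -0.12).

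The transcription factors had higher levels in PARP2 WT than in PARP1 WT, without passing the adjusted threshold in any comparison. Tfeb (chr17:47737030-47792419) had 26.3 and 28.2 CPM in PARP1 WT, then 28.5 and 28.7 CPM in PARP1CKO, then 32.7 and 30.3 CPM in PARP2 WT and finally 35.8 and 31.1 CPM in PARP2CKO. Tfe3 (chrX:7762560-7775202) had 139 and 143 CPM in PARP1 WT, then 151 and 144 CPM in PARP1CKO, then 151 and 152 CPM in PARP2 WT and finally 152 and 152 CPM in PARP2CKO. Mitf (chr6:97807052-98021349) had 49.7 and 52.9 CPM in PARP1 WT, then 49.98 and 48.07 CPM in PARP1CKO, then 55.0 and 57.1 CPM in PARP2 WT and finally 55.3 and 57.9 CPM in PARP2CKO. All 3 were higher in both PARP2 WT libraries than in both PARP1 WT libraries, by 0.21, 0.11 and 0.13 on the log2 scale, with unadjusted p under 0.05 and adjusted p of 0.187, 0.209 and 0.207 (edgeR). In PARP1CKO their log2 fold changes were 0.07 (Tfeb), 0.06 (Tfe3) and -0.07 (Mitf), and in PARP2CKO 0.09, 0.00 and 0.02, with groups that overlapped for all 3 in PARP2CKO. Over the fits that leave out 1 library the PARP1CKO values ran from 0.017 to 0.115 (Tfeb), 0.024 to 0.101 (Tfe3) and -0.111 to -0.022 (Mitf), and Mitf ran from 0.083 to 0.172 between the WT groups. The PARP2CKO values changed sign over these fits, from -0.020 to 0.186 (Tfeb), -0.004 to 0.007 (Tfe3) and -0.018 to 0.048 (Mitf).

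Members with CACGTG in the promoter did not stand apart from those without it in these medians. In PARP1CKO the median log2 fold change was 0.06 for the 13 genes with the core and 0.05 for the 23 without it. Of these, 9 of 13 and 17 of 23 genes were positive. The medians in PARP2CKO were 0.06 and 0.05, with 13 of 13 and 19 of 23 genes positive. Between the WT groups they were 0.07 and 0.07, with 10 of 13 and 18 of 23 genes positive. Of the genes with the 5 smallest p in any comparison, Atp6v0e, Ctsl, Gaa and Atp6v0b held the core, Ctss, Npc2, Atp6v0a1, Atp6v1e1 and Atp6ap2 did not, and Ctsh and Atp6v1b2 had no promoter entry.

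Markers of other cells differed between the lines, too. All 5 B cell markers were lower in PARP2 WT and passed the adjusted threshold, and their sum was 32.2 and 27.5 CPM in PARP1 WT against 10.6 and 8.96 CPM in PARP2 WT. All 4 markers of granulocyte progenitors were higher in PARP2 WT, 2 of them past the adjusted threshold, with sums of 265 and 302 CPM in PARP1 WT against 390 and 347 CPM in PARP2 WT. Itgam, Ly6c2 and Ly6c1, from the CD11b and Gr1 gate of the study, were all higher in PARP2 WT without overlap. Their log2 fold changes were 0.05, 0.21 and 0.60, 2 at an unadjusted p under 0.05 and 0 past the adjusted threshold. The osteoclast markers Ctsk (11.7 and 12.4 CPM in PARP1 WT, 36.9 and 22.8 CPM in PARP2 WT) and Atp6v0d2 (67.2 and 64.8 CPM, 106 and 127 CPM) rose, with log2 fold changes of 1.31 and 0.82 and adjusted p of 0.0267 and 0.00110 (edgeR), and Mmp9 fell. The sum of the 10 monocyte and macrophage markers was 4176 and 4405 CPM in PARP1 WT against 4493 and 4711 CPM in PARP2 WT, and 1 of them, Mertk, rose (log2 fold change 0.76, adjusted p = 0.00529, edgeR). The 7 neutrophil markers were split, with sums of 2052 and 2111 CPM in PARP1 WT against 2179 and 2033 CPM in PARP2 WT, a median of -0.06, and 2 higher (Camp and Ltf) and 2 lower without overlap. Of the 7, Retnlg (log2 fold change -0.79, adjusted p = 0.00923, edgeR) and, of the erythroid list, Hba-a1 (-1.31, adjusted p = 0.0126, edgeR) fell, and all 4 basophil and mast cell markers were lower without overlap and did not pass. Their part in the lysosomal differences was not tested, and line, litter and preparation cannot be told apart from the allele with these labels.

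**Figure D4:**
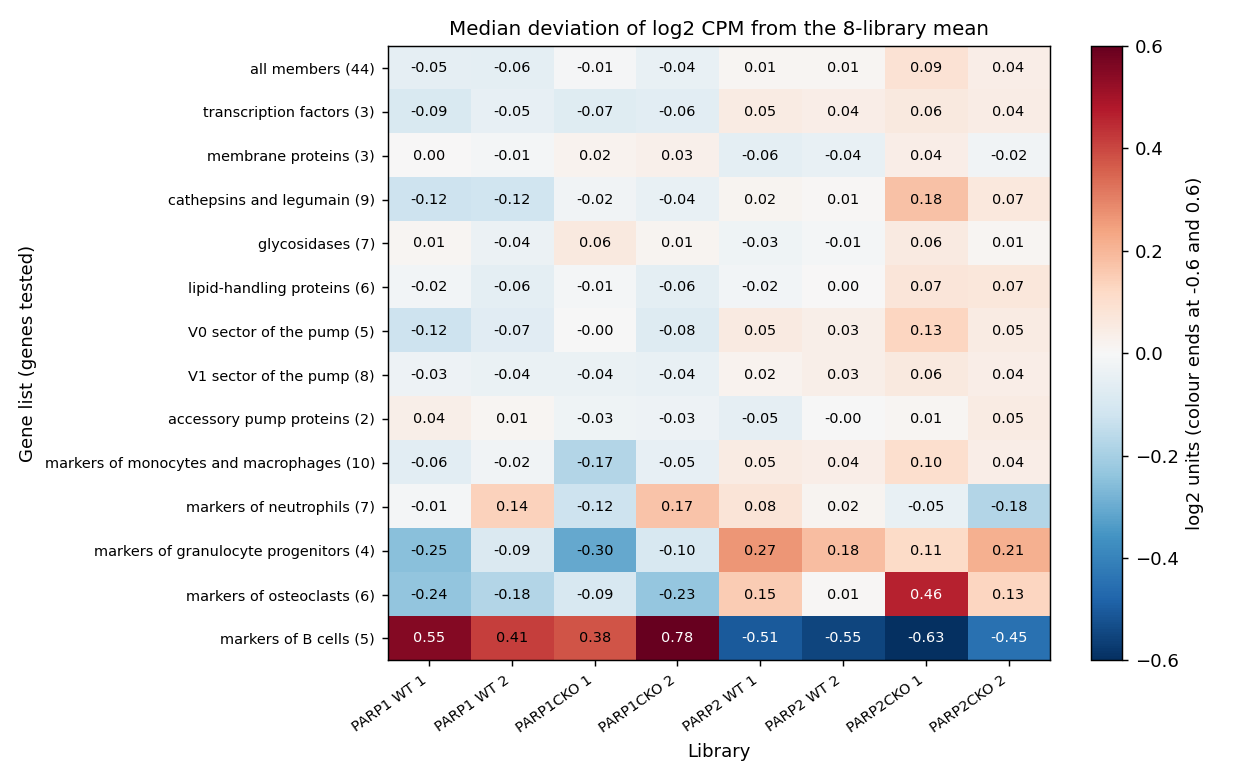
Median deviation of log2 CPM from the mean of the 8 libraries, for the members by role and for lists of cell type markers (rows, number of genes tested in parentheses) in each library (columns). The proteases run from -0.12 in PARP1 WT to 0.18 in PARP2CKO replicate 1, and the B cell markers from 0.78 in PARP1CKO replicate 2 to -0.63 in PARP2CKO replicate 1.

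Other genes of the pathway were read from the same fit. Of 127 further lysosomal, sorting, mTORC1 and autophagy genes, 113 were tested, and 0 passed the adjusted threshold in either deletion or in the difference. In PARP1CKO 12 were higher and 4 lower at an unadjusted p under 0.05 (10.6% and 3.54%, against 6.11% and 5.15% of all genes tested), and in PARP2CKO 7 were higher and 0 lower (6.20% higher, against 2.36% of all genes tested). In PARP2CKO 70.8% of the 113 had a higher level and 26.5% were higher and 7.96% lower without overlap, against 49.3%, 18.4% and 18.8% of all genes tested. In PARP1CKO these shares were 61.95%, 37.17% and 15.04%, against 52.1%, 21.0% and 20.2% of all genes tested. For the difference of the deletion effects 4 were higher and 6 lower (3.54% and 5.31%, against 3.60% and 4.09% of all genes tested). Hgsnat, which acetylates heparan sulfate ends in the lysosome, had the smallest p in PARP1CKO, with 97.9 and 87.2 CPM in PARP1 WT against 133 and 129 CPM in PARP1CKO (log2 fold change 0.50, SE 0.0951, adjusted p = 0.136, edgeR). Ifi30, a lysosomal thiol reductase that opens disulfide bonds, followed with a log2 fold change of 0.40 (SE 0.0975, adjusted p = 0.250, edgeR). M6pr, the cation-dependent mannose 6-phosphate receptor that carries enzymes to lysosomes, had the smallest p in PARP2CKO, with 419 and 416 CPM in PARP2 WT against 451 and 451 CPM in PARP2CKO (log2 fold change 0.11, SE 0.0399, adjusted p = 0.888, edgeR). Neither gene overlapped between the groups named. Between the WT groups 7 of the 113 passed (6.20%, against 3.16% of all genes), all higher in PARP2 WT, and they were Ppt2, Galns, Cln8, Tpcn2, Sort1, Tcirg1 and Cstb. Tcirg1, the V0 subunit a3 of the osteoclast and macrophage pump, rose from 700 and 712 CPM to 827 and 888 CPM (log2 fold change 0.28, SE 0.0510, adjusted p = 0.0252, edgeR), and Tpcn2, a lysosomal cation channel, from 67.5 and 76.4 CPM to 98.2 and 95.6 CPM (0.43, SE 0.0670, adjusted p = 0.0133, edgeR). Cstb, an inhibitor of cysteine cathepsins, rose from 372 and 354 CPM to 416 and 422 CPM (0.21, SE 0.0439, adjusted p = 0.0429, edgeR).

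Some members could share reads with other genes. A pseudogene copy of Atp6v0c was listed in the same table, and exons of Ctsa, Ctsb, Ctsz, Lamp1, Hexa, Grn, Atp6v1e1 and Atp6v1h overlap a counted gene on the opposite strand, while Glb1 overlaps Tmppe on its own strand. The library kit keeps the strand, and whether counting used it is not given in the sources used here, so the values of these members are uncertain to that extent.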

How the data were processed

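Total RNA of IMCs was sequenced in 8 libraries, 4 µg of RNA each. The authors mapped reads to mm10 with TopHat2 2.0.12, marked duplicates with Picard 1.127 and deposited raw counts for each gene from featureCounts; whether marked reads were counted is not given in the sources used here. The members and gene lists were chosen with earlier results of these data known.

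Genes passing edgeR's filterByExpr (13197 of 24062) were fitted in R 4.3.3 with edgeR 4.0.16 on all 8 libraries, with TMM factors (0.965 to 1.03), a mean for each group and the quasi-likelihood test. P-values were adjusted by Benjamini-Hochberg over all genes tested, with a threshold of 0.05. CPM are TMM-scaled. The common biological coefficient of variation was 0.0550. Replicates differed by more than sampling noise (chi-square per gene 8.57 to 12.9). Each library was taken as 1 sample, although the labels do not say that each came from its own mouse. Groups were called apart when both libraries of one lay above both of the other.

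On 3 simulated tables of 13197 genes, modelled on PARP1CKO against PARP1 WT with 200 genes changed, the share of changed genes called was 66.7% at a log2 change of 0.5, 81.6% at 1 and 97.4% at 2, with 6.31% false calls. Every member's log2 difference in the 4 comparisons was smaller than 0.5, and changes of such a size were not simulated. The real fit of PARP1CKO against PARP1 WT called only 14 genes, and the other comparisons were not simulated. For the difference of the deletion effects, Parp1 itself stood at 2.13 with an adjusted p of 0.0553 (edgeR). The simulated shares therefore do not show how often a changed member would be called.

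Values in every library were given for Tfeb, Tfe3, Mitf, members called in any comparison, the 5 with the smallest p in each comparison, and the 3 highest and 3 lowest per length; Lgmn, Lamp2 and Ctsz and, among markers and other lysosomal genes, Ctsk, Atp6v0d2, Csf1r and Itgam were added after their values were seen, all but Lgmn without a value for every library. Exon lengths and positions are from GENCODE M21. Alternatives were DESeq2 1.42.0, its size factors, total counts alone, the likelihood-ratio test, a fit on 4 libraries, no filter, a filter at 1 CPM in at least 2 libraries, replicate number as a block, and each library left out. Figures were drawn with matplotlib 3.10.9.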

Additional observations from a re-analysis of the deposited data

How the results depend on the processing

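Over the alternatives, the median log2 fold changes of the members, the number called and the number with an unadjusted p under 0.05 were within 1.5 times the value reported or moved by less than the spread between replicates in 170 cases, moved further in 21 and changed sign in 1. With total counts alone the medians were 0.032 for PARP2CKO against PARP2 WT and 0.030 for PARP2 WT against PARP1 WT, where those of all genes tested were -0.027 and -0.038. DESeq2 called 1 member in PARP2CKO. Between the WT groups, DESeq2, the likelihood-ratio test and the fit with no filter called 5 members each. The shares of all genes called in these alternatives are not given here, so these counts cannot be set against such a share. Leaving out each library gave 3 to 7 members at an unadjusted p under 0.05 in PARP1CKO, 1 to 11 in PARP2CKO, 3 to 8 for the difference and 6 to 17 between the WT groups, where 0 to 4 were called; the median difference ran from -0.008 (without PARP2CKO replicate 1) to 0.055. Transcription factors changed sign in PARP2CKO: Tfe3 was -0.025 with total counts alone and -0.001 with no filter, Mitf was -0.011 with total counts alone, and libraries left out gave -0.020 to 0.186 for Tfeb, -0.004 to 0.007 for Tfe3 and -0.018 to 0.048 for Mitf. For the difference of the deletion effects, Tfeb was -0.000 with total counts alone and ran from -0.087 to 0.120 with libraries left out. Tfe3, Mitf and Tfeb with total counts alone moved by about as much as the median of all genes; the cause of the other changes was not tested. A fit on 4 libraries could not be had for the difference.

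The labels number the replicates alike. The differences between replicates 1 and 2 had correlations of -0.204 to 0.196 between groups, over 0.1 in 2 of 6 pairs of groups. Within the lines the correlation was -0.204 for PARP1 WT with PARP1CKO and 0.196 for PARP2 WT with PARP2CKO. Whether same-numbered libraries were handled together cannot be told from these values. With the replicate number as a block the counts called were 0, 0, 0 and 3 and those at an unadjusted p under 0.05 were 6, 8, 7 and 17, for PARP1CKO, PARP2CKO, the difference and the WT groups. Crossing the PARP1CKO numbers, an alternative chosen after seeing the data, gave 0 and 6 in PARP1CKO.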

Other observations

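Arsb, a hydrolase gene that is not among the 44 members, differed more between the PARP2CKO replicates than any member did, and it was singled out after its values were seen. Arsb, arylsulfatase B, which removes sulfate from dermatan sulfate (chr13:93771630-93943016), had 86.7 and 94.1 CPM in PARP1 WT, then 84.5 and 86.8 CPM in PARP1CKO, then 211 and 224 CPM in PARP2 WT and finally 333 and 86.2 CPM in PARP2CKO replicates 1 and 2. PARP2CKO replicate 2 thus stood with the PARP1 line, while the other 3 libraries of the PARP2 line stood far above it. Between the WT groups the log2 fold change was 1.26 (SE 0.460, adjusted p = 0.187) in edgeR's quasi-likelihood test.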
